A study of Ovis aries with 2 samples.

Results

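The 9 genes described here encode proteins that hold endothelial cells together or let white blood cells stop on them: PECAM1, CDH5, CLDN5, ESAM, SELP, SELE, ICAM1, OLR1 and PLVAP. Each was taken as the row of the gene tables whose symbol equals its name, and each name matched 1 of the 21890 rows. All 9 had at least 1 UMI (unique molecular identifier, the count of captured transcripts) in both libraries. Their identifiers were ENSOARG00020014798 for PECAM1, ENSOARG00020014091 for CDH5, ENSOARG00020006137 for CLDN5, ENSOARG00020015670 for ESAM, ENSOARG00020008417 for SELP, ENSOARG00020008826 for SELE, ENSOARG00020003991 for ICAM1, ENSOARG00020000334 for OLR1 and ENSOARG00020011074 for PLVAP.

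Droplet-based single-cell RNA sequencing was run on 1 library from the native carotid artery and 1 library from an implanted cell-free vascular graft, titled H2R5-ATEV and called the graft here. Both tissues came from sheep (Ovis aries) aged 1 to 2 years and were taken out after 12 weeks; no genotype, strain, drug or further treatment is given for either. The native sample is titled an aorta, while its source and tissue fields say carotid artery, and the number of animals is not given. Cells were freed with collagenases, elastase, neutral protease and DNase perfused through the clamped vessels. The design allows the question of how far endothelial cells on the graft carry the junction and adhesion transcripts of the artery. With 1 library per tissue no difference has a replicate check, and all intervals are 95% intervals of counting error only.

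Endothelial cells are joined by adherens junctions, in which VE-cadherin (CDH5) binds its own kind on the next cell, and by tight junctions, in which claudin-5 (CLDN5) seals the gap. PECAM1 and ESAM sit at the same contacts and are also used by white blood cells that pass between cells. In inflamed vessels the selectins (SELP, stored in Weibel-Palade bodies, and SELE, made on demand by cytokine signalling) catch rolling leukocytes, and ICAM1 then binds their integrins for firm arrest. OLR1 encodes LOX-1, a lectin-like receptor for oxidised low-density lipoprotein, and PLVAP forms the diaphragms of caveolae and fenestrae in permeable endothelium. No sequence is printed, since the reference table used here holds gene names only.

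The libraries differed in depth and in size. The native library held 11371 barcodes with a median of 1366 UMIs, and the graft library held 1229 barcodes with a median of 17050 UMIs and 7 barcodes occurred in both, 1 of them in the endothelial class of both. After filtering, barcodes of at least 2000 UMIs (4398 native, 858 graft) were given a class from marker genes, none of which is among the 9. Endothelial markers alone passed their limit in 2300 native barcodes (52.3%, 50.8 to 53.8%, 15072459 UMIs, median 5226) and in 195 graft barcodes (22.7%, 20.0 to 25.7%, 9811892 UMIs, median 36386). All 17 endothelial markers with a row were detected in both libraries, and their summed level was 4256 UMIs per 1000000 UMIs of the class (CPM) in native and 4905 in graft endothelial barcodes. Other lists summed in these barcodes to 133 native and 103 graft CPM for macrophages, 27.2 and 12.6 for T or NK cells, and 3.38 and 1.73 for platelets, whose defining markers PPBP, GP9 and TUBB1 were at 0 in both. The smooth muscle list was at 385 and 709 CPM, the fibroblast list at 2691 and 3904 CPM (of which CLEC3B 2041 and 3057), and the cycling list at 60.9 and 563 CPM.

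In endothelial barcodes the graft carried more OLR1, SELE and SELP and less CLDN5 than the artery, while PECAM1, CDH5, ESAM, ICAM1 and PLVAP were within 2-fold. OLR1 stood at 1727 CPM in the graft against 74.2 in the artery, SELP at 677 against 276, and SELE at 19.7 against 0. CLDN5 stood at 168 CPM against 444. Of the 9 genes, 3 passed 2-fold upward in the graft and 1 passed it downward, with 5 CPM added to each level, beside 7.65% and 6.39% of the 14750 genes with at least 10 UMIs. The median log2 ratio of the 9 was 0.64, beside -0.025 for those 14750 genes. The 5 CPM added pulls the ratios of genes with few UMIs toward 0, and the 14750 genes were not matched for level. Each of the 9 genes except SELE had at least 1118 UMIs in each library's endothelial barcodes. SELE passed the minimum of 10 UMIs through the graft alone, so its place among the higher genes followed from passing.

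**Figure D1:**
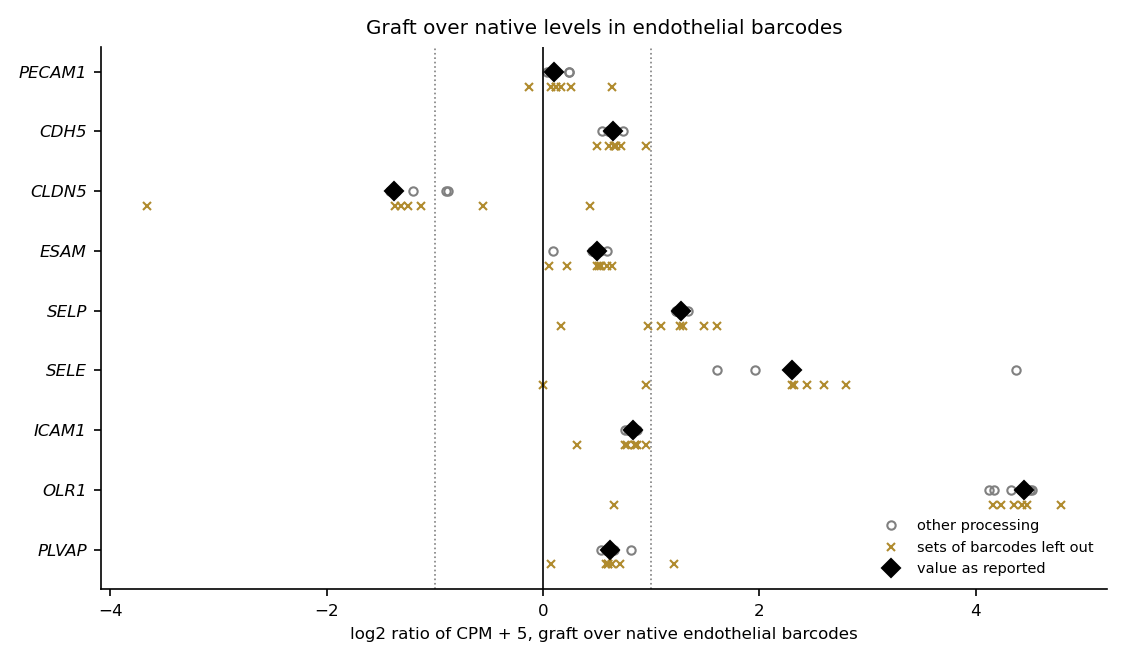
Log2 ratio of CPM + 5 in graft over native endothelial barcodes (x axis) for each gene (y axis). Black diamonds are the values reported, open circles the same ratio under other processing, and crosses the ratio with sets of barcodes left out; dotted lines mark 2-fold. OLR1 (4.45) lies far to the right of the rest, and the CLDN5 crosses spread from -3.66 to 0.43.

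Among the junction genes, PECAM1 was at 2464 CPM (2439 to 2489) in native and 2652 CPM (2620 to 2685) in graft endothelial barcodes, a ratio of 1.08. It was detected in 2269 of 2300 native and 194 of 195 graft barcodes, so both libraries carried it in nearly every endothelial barcode. CDH5 was at 161 CPM (155 to 167) in the artery and 254 CPM (244 to 264) in the graft, 1.58-fold higher (1.49 to 1.67). ESAM was at 99.9 CPM (94.9 to 105) and 143 CPM (136 to 151), 1.43-fold higher in the graft (1.33 to 1.54). The 3 genes thus differed by more than counting error and by less than 2-fold. For PECAM1 the direction rested on 1 of the 5 sets of graft endothelial barcodes: without graft set 1 its log2 ratio was -0.13 instead of 0.11.

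CLDN5 went the other way. It was at 444 CPM (434 to 455) in native and 168 CPM (160 to 176) in graft endothelial barcodes, 2.65-fold lower in the graft (2.51 to 2.80). Single barcodes differed more than the sums. Among barcodes of at least 5000 UMIs, the native median was 339 CPM with quartiles of 144 and 639, and the graft median was 33.3 CPM with quartiles of 0 and 331. In the graft, the 20 barcodes with the most CLDN5 held 58.8% of its UMIs, against 41.3% in the 230 native barcodes with the most. The call of at least 2-fold depended on how barcodes were weighted: the log2 ratio was -1.38 from summed UMIs, -0.87 with equal weight for each barcode and -0.89 with each barcode thinned to 1000 UMIs.

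Of the leukocyte adhesion genes, SELP was at 276 CPM (267 to 284) in the artery and 677 CPM (661 to 694) in the graft, 2.46-fold higher (2.36 to 2.55). The spread among graft barcodes was wide, from 0 to 7052 CPM around a median of 247 in barcodes of at least 5000 UMIs, against a native median of 197. The medians of single barcodes were thus much closer than the sums, and the graft's upper quartile of 877 CPM lay above the native one of 381. Single-barcode medians and quartiles, here and for the other genes, were taken without thinning. Native endothelial barcodes were shallower (median 5226 against 36386 UMIs), so their values rest on fewer counts. ICAM1 was at 221 CPM (214 to 229) in the artery and 399.5 CPM (387 to 412) in the graft, 1.80-fold higher (1.72 to 1.89), with single-barcode medians of 137 and 357 CPM.

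SELE had 0 UMIs in the 2300 native endothelial barcodes, which allows a share of barcodes with a UMI of up to 0.130% by the limit of 3 counts and 0.160% by the exact interval. In the graft it had 193 UMIs in 31 of 195 barcodes (15.9%, 11.1 to 21.8%), at 19.7 CPM (17.0 to 22.6). With the native sum put at a floor of 3 counts and the graft level taken as it stands, this is at least 98.8-fold higher; the exact interval of the ratio, which includes the counting error of the graft, starts at 79.6-fold. Since graft barcodes were deeper, each was also thinned to 1000 UMIs, after which 1.03% (0.124 to 3.66%) kept a SELE UMI.

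OLR1 had the highest log2 ratio of the 9 with 5 CPM added (4.45, against 2.30 for SELE). It was at 74.2 CPM (69.9 to 78.7) in native and 1727 CPM (1701 to 1754) in graft endothelial barcodes, 23.3-fold higher (21.9 to 24.8), which placed it at the 99.9th percentile of log2 ratios over all genes tested. Native OLR1 was concentrated in few barcodes: 442 of 2300 had a UMI, and 81.0% of the UMIs lay in 230 of them, with 82 UMIs in the highest. In the graft 148 of 195 barcodes had a UMI, and the single-barcode median was 1057 CPM against 0 in the artery. The ranges still overlapped, with single barcodes reaching 5216 CPM in the artery and 7563 CPM in the graft. PLVAP, the diaphragm gene, was at 103 CPM (97.5 to 108) in the artery and 161 CPM (153 to 169) in the graft, 1.57-fold higher (1.46 to 1.68).

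**Figure D2:**
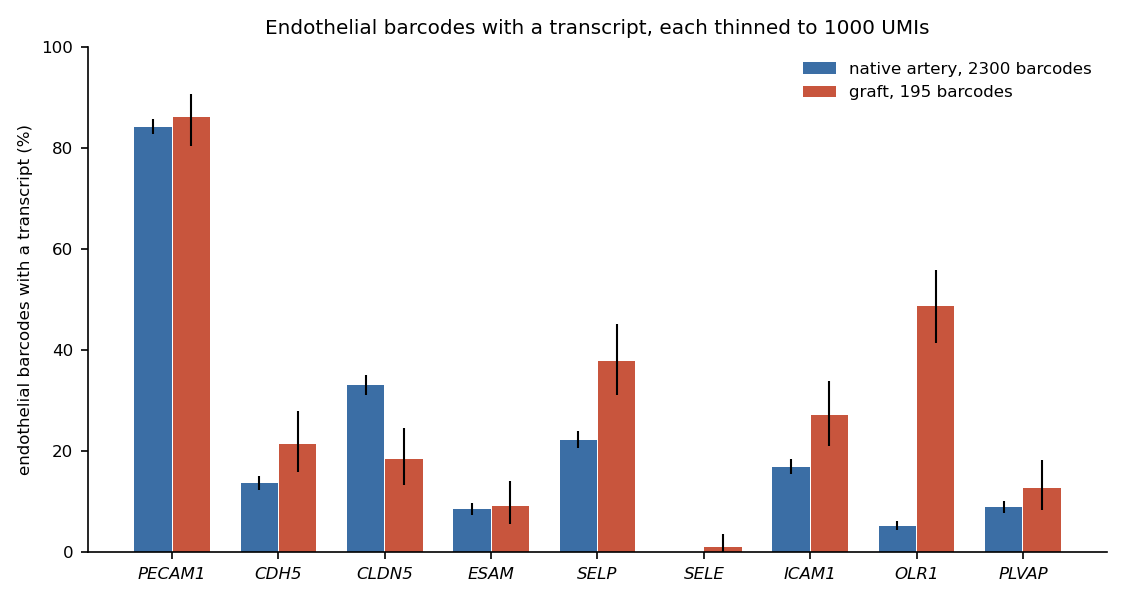
Share of endothelial barcodes with at least 1 transcript of each gene (y axis, percent) after every barcode was thinned to 1000 UMIs, in the artery (blue) and the graft (red). Error bars are exact 95% binomial intervals; OLR1 stands at 5.22% and 48.7%, and CLDN5 at 33.1% and 18.5%.

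At equal depth the shares of barcodes with a transcript followed the same directions. No endothelial barcode had to be left out, since all held at least 2000 UMIs. OLR1 was found in 5.22% (4.34 to 6.21%) of native and 48.7% (41.5 to 56.0%) of graft barcodes, SELP in 22.3% (20.6 to 24.1%) and 37.9% (31.1 to 45.2%), ICAM1 in 17.0% (15.4 to 18.6%) and 27.2% (21.1 to 34.0%), and CDH5 in 13.7% (12.4 to 15.2%) and 21.5% (16.0 to 28.0%). These 4 had intervals that did not overlap. CLDN5 was found in 33.1% (31.2 to 35.1%) of native and 18.5% (13.3 to 24.6%) of graft barcodes. The shares of PECAM1 (84.3% and 86.2%), ESAM (8.61% and 9.23%), PLVAP (9.0% and 12.8%) and SELE had overlapping intervals. Without thinning the graft shares were higher for 7 genes with intervals apart, among them ESAM (39.3% and 86.7%), whose equal-depth shares were not distinguishable. As a background, in T or NK barcodes thinned in the same way (median before thinning 6109.5 native and 6644.5 graft UMIs), the shares were 0.183% and 1.56% for CDH5, 1.47% and 0% for CLDN5, 1.10% and 1.56% for SELP, and 0% and 1.56% for OLR1. By the limit of 3 counts, a count of 0 allows up to 4.69% of the 64 graft barcodes for CLDN5 and up to 0.549% of the 546 native ones for OLR1.

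**Figure D3:**
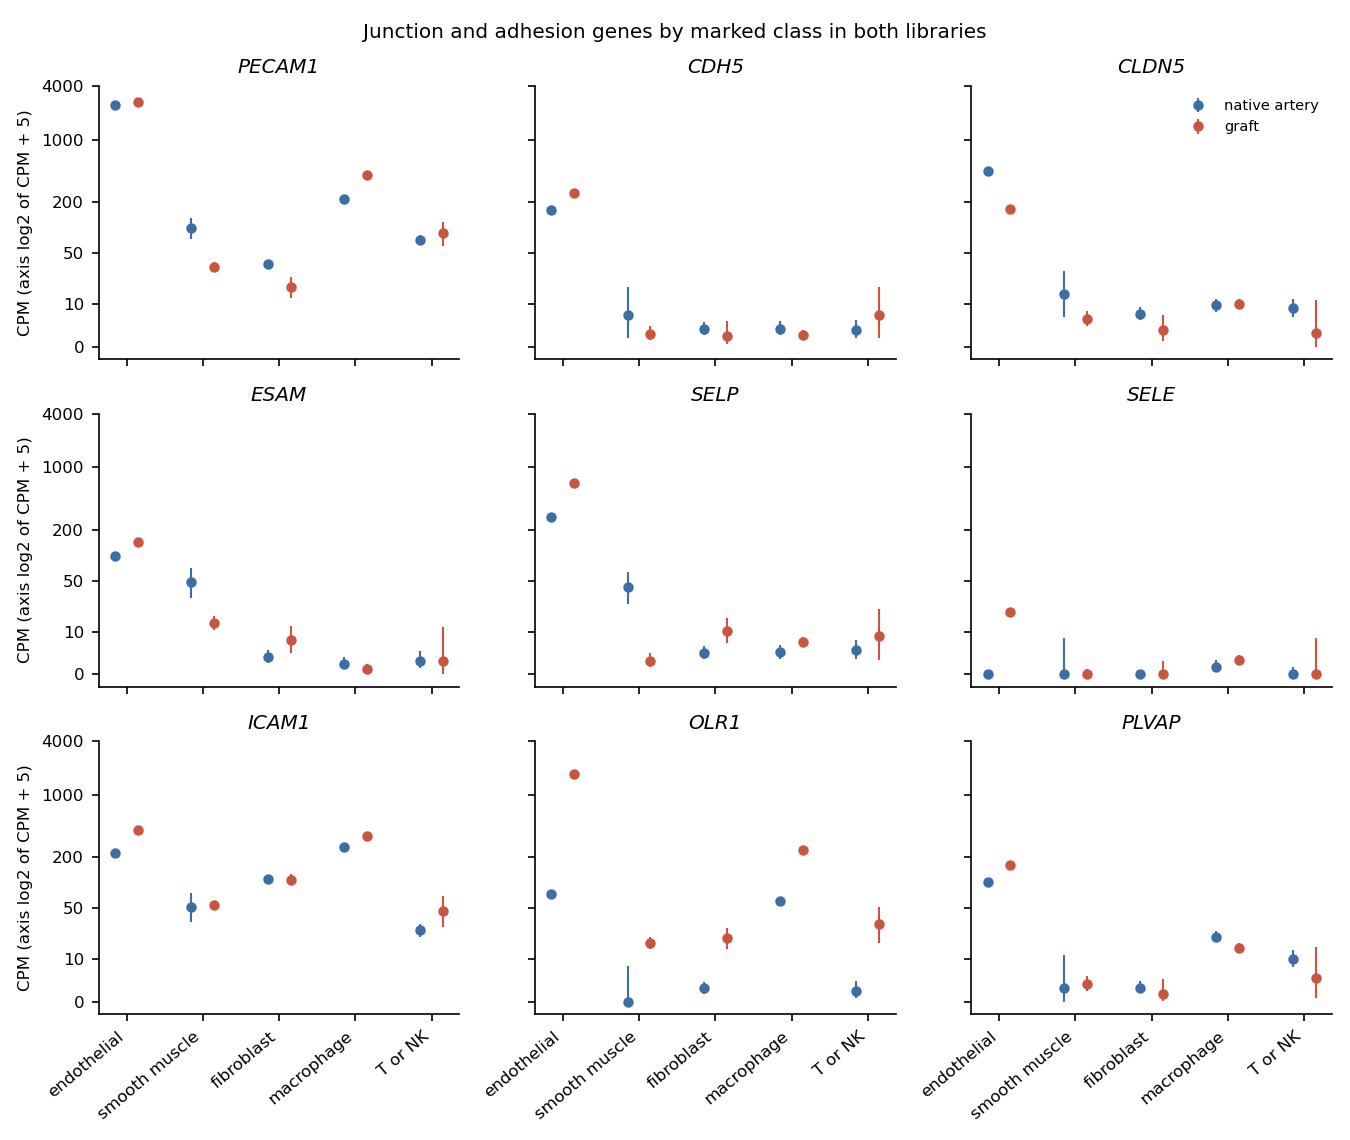
Level of each gene (y axis, CPM on an axis of log2 of CPM + 5) in 5 marked classes (x axis) of the artery (blue) and the graft (red), with exact 95% Poisson intervals. CDH5 and CLDN5 stay under 15 CPM outside endothelial barcodes, while ICAM1, PECAM1 and OLR1 also appear in macrophage barcodes.

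Set against the other classes of their own library, 7 of the 9 genes were highest in endothelial barcodes in both libraries, leaving out B or plasma barcodes, of which there were 23 native and 10 graft. The exceptions were ICAM1 and SELE in the artery. At least 2-fold over the other classes together were 7 of 9 genes in the artery and 8 of 9 in the graft, beside 6.4% and 6.44% of all genes tested. To see what free endothelial RNA alone would give, the level of each gene in another class was divided by the level it would have if all 8 endothelial reference genes (VWF, TEK, PTPRB, MMRN2, CLEC14A, SOX18, NOS3 and TIE1) measured there had come with it in the endothelial ratio. A value near 1 is what endothelial RNA alone would leave.

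CDH5 outside endothelial barcodes was at 2.99 CPM over the native and 1.91 CPM over the graft classes together, and the intervals of the other 4 classes overlapped in both libraries. In macrophages its ratio to the level from endothelial RNA was 1.05 in the artery and 0.54 in the graft. CLDN5 outside endothelial barcodes was at 8.25 and 7.84 CPM, with a native macrophage ratio of 1.22 and a graft macrophage ratio of 4.61. ESAM came next in smooth muscle barcodes, at 47.8 CPM (30.3 to 71.7, 23 UMIs in 43 barcodes) in the artery and 13.7 CPM (10.8 to 17.2, 75 UMIs in 92 barcodes) in the graft. These levels were 10.5 and 9.84 times those from endothelial RNA.

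PECAM1 was second highest in macrophages, a cell type that also uses it in transmigration. It was at 216 CPM (205 to 227) in native and 399.7 CPM (389 to 411) in graft macrophages, 1.85-fold higher in the graft (1.74 to 1.97), and 5.01 and 11.7 times the level from endothelial RNA. CDH5 in the same barcodes was at 2.96 and 1.76 CPM.

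ICAM1 was shared with other classes, macrophages and fibroblasts foremost. In the artery macrophages held 263 CPM (250.1 to 275), above the 221 CPM of endothelial barcodes, and fibroblasts held 112 CPM. In the graft the order was endothelial at 399.5, macrophages at 344 (334 to 354) and fibroblasts at 109.9 CPM. The macrophage level was thus 1.31-fold higher in the graft (1.24 to 1.39) and the fibroblast level differed by less than counting error (ratio 0.98, 0.84 to 1.15). The macrophage ratios to endothelial RNA were 67.8 and 66.6, and those of fibroblasts 27.5 and 24.4. Smooth muscle barcodes held 52.0 CPM (25 UMIs) in the artery and 54.3 CPM (297 UMIs) in the graft, with ratios of 5.13 and 14.0. T or NK barcodes held 26.5 and 46.5 CPM, with ratios of 4.86 and 5.31.

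OLR1 was second highest in macrophages as well, where LOX-1 acts as a scavenger receptor. Macrophages held 61.1 CPM (55.2 to 67.4) in the artery and 239.97 CPM (231 to 249) in the graft, 3.93-fold higher in the graft (3.54 to 4.38). It was the only one of the 9 genes at least 2-fold higher in graft macrophages, beside 5.23% of the 14521 genes tested there; 0 of the 9 were at least 2-fold lower, beside 2.49%. These macrophage levels were 47.1 and 10.8 times those from endothelial RNA. In graft smooth muscle, fibroblast and T or NK barcodes OLR1 was at 17.6, 20.7 and 31.7 CPM, which is 1.04, 1.06 and 0.84 times the level from endothelial RNA, so these are not read as expression. OLR1 was also the gene counted as higher in each of these 3 classes: 1 of 9 in smooth muscle (background 9.8%), 1 of 9 in fibroblasts (7.2%) and 1 of 9 in T or NK barcodes (3.59%).

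Outside endothelial barcodes SELP was at 4.82 CPM in the artery and 5.69 CPM in the graft over the other classes together. The exception was native smooth muscle, with 41.6 CPM (25.4 to 64.2) from 20 UMIs in 8 of 43 barcodes, 3.30 times the level from endothelial RNA, against 2.01 CPM in graft smooth muscle. In smooth muscle barcodes 3 of the 9 genes were at least 2-fold lower in the graft, beside 9.87% of all genes there: SELP, ESAM and PECAM1, the last at 99.8 native CPM and 0.89 times the level from endothelial RNA. In fibroblasts and in T or NK barcodes 0 of the 9 were lower, beside 8.11% and 4.08%. SELE occurred outside endothelial barcodes only in macrophages and in barcodes with markers of several classes. It had 7 UMIs in 3 of 470 native macrophage barcodes and 27 UMIs in 6 of 312 graft macrophage barcodes, at 1.09 and 2.16 CPM. PLVAP was second highest in macrophages, at 21.5 CPM (18.1 to 25.4) in the artery and 15.1 CPM (13.0 to 17.4) in the graft, 12.0 and 7.28 times the level from endothelial RNA.

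**Figure D4:**
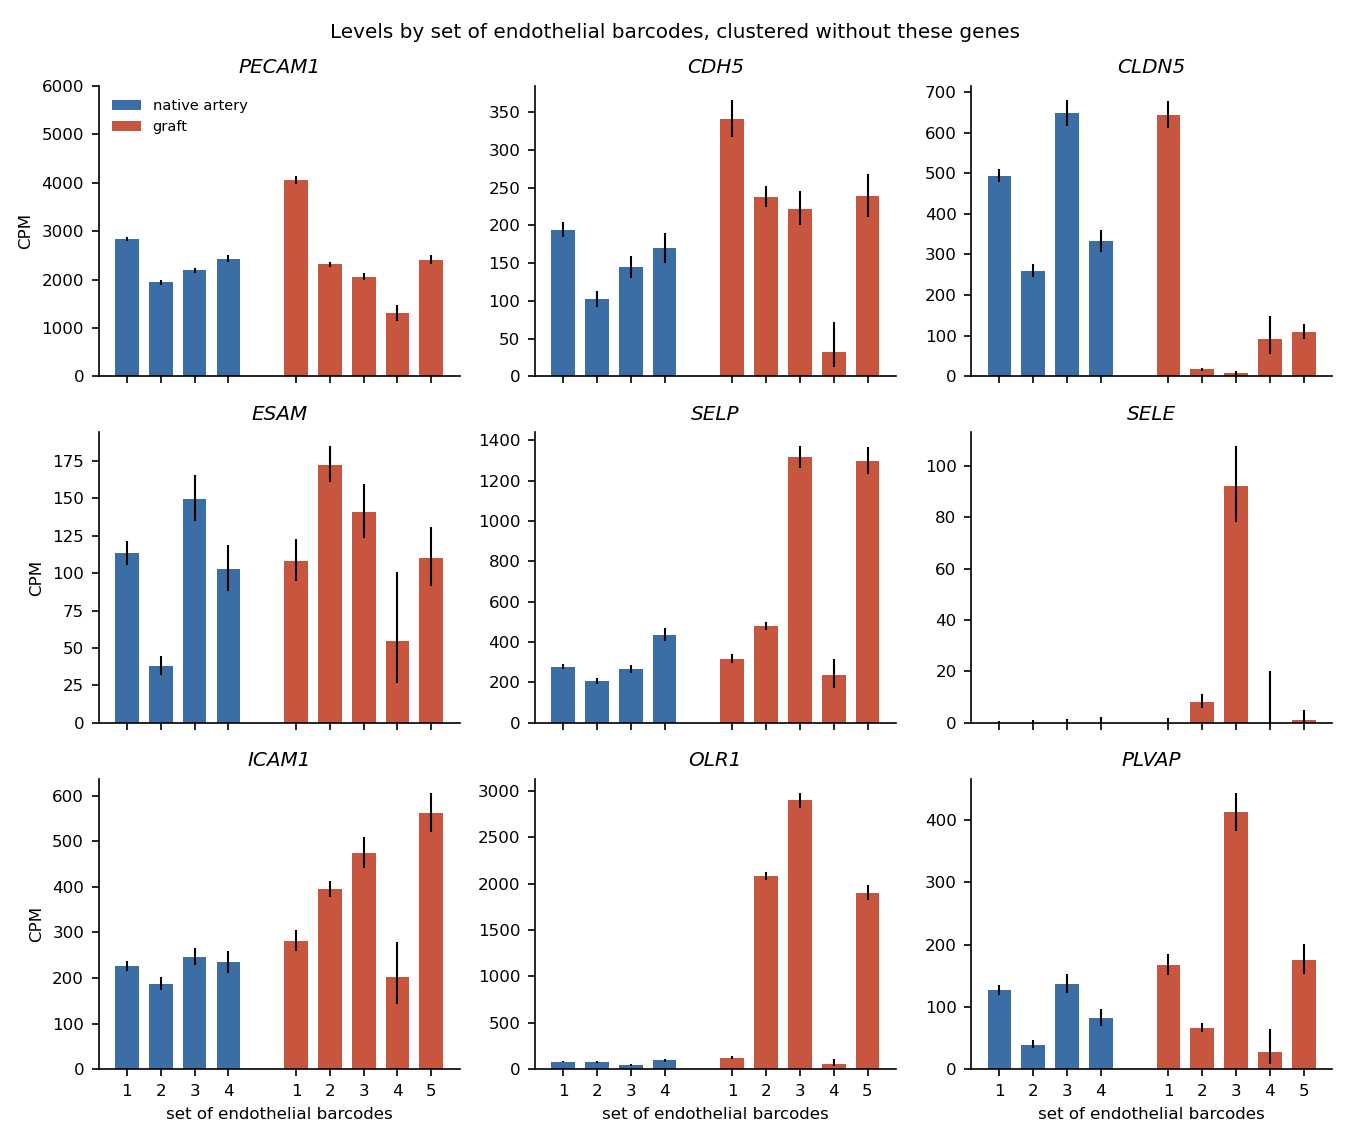
Level of each gene (y axis, CPM, from 0) in 4 sets of native (blue) and 5 sets of graft (red) endothelial barcodes (x axis), clustered without the 9 genes. Error bars are exact 95% Poisson intervals; graft set 1 has CLDN5 at 644 CPM and OLR1 at 125 CPM, and graft sets 2, 3 and 5 have OLR1 at 1901 CPM or more and CLDN5 at 109 CPM or less.

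Endothelial barcodes of the graft were not alike. They were clustered in each library with the 9 genes left out, and the sets are numbered and called by their leading genes; a comparison of sets is a description. Graft set 1 (69 barcodes) was led by NPPC, STC1, GUCA2A and IGF2 and carried the arterial connexin gene GJA5 at 479 CPM, beside 550 to 845 CPM in the native sets. Set 2 (68 barcodes) was led by PLAT, CENPF and TOP2A, with the cycling list at 1019 CPM. Set 3 (23 barcodes) was led by PAK5, ROBO1, MUC15 and SLIT3, and set 5 (16 barcodes) by CLEC1A, ZFPM2, CXCL8 and BMP2. Set 4 (19 barcodes) was led by CCSER1 and RALGPS2 and was shallow, with a median of 7556 UMIs and 8.67% mitochondrial UMIs, beside 2.35 to 4.28% in the other graft sets. In each of the 9 sets the 10 leading genes over the other classes of the library held at least 1 endothelial marker and 0 markers of another class. The classes were assigned by these same markers, so this follows in part from the assignment and is no separate check of the sets.

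CLDN5 and OLR1 divided these sets in opposite directions. CLDN5 was at 644 CPM (611 to 678) in graft set 1, within the 260.4 to 648 CPM of the native sets, and set 1 held 85.8% of all graft endothelial CLDN5 UMIs. In sets 2, 3 and 5 it was at 17.0, 7.13 and 109 CPM, which is 26.2-fold, 62.4-fold and 4.07-fold below the native endothelial level. OLR1 was at 125 CPM (110.5 to 141) in set 1, beside 45.6 to 93.1 CPM in the native sets, and at 2085, 2901 and 1901 CPM in sets 2, 3 and 5. Set 4 had OLR1 at 60.2 and CLDN5 at 93.0 CPM. Set 1 was thus 1.45-fold above the native endothelial level for CLDN5 (1.37 to 1.53) and 1.68-fold above it for OLR1 (1.47 to 1.92). GJA5, given above for set 1, was at 334 CPM in set 4 and at 3.92, 0 and 59.8 CPM in sets 2, 3 and 5. EMCN, the endomucin gene of capillary and venous endothelium, was at 540, 307 and 254 CPM in sets 2, 3 and 5, against 89.3 in set 1 and 60.8 to 68.8 in the native sets. NR2F2, a transcription factor gene of venous endothelium, was at 49.4, 32.7 and 41.6 CPM in those sets, below the 84.3 of set 1. The native sets ranged from 37.4 to 66.4 CPM. The interval of graft set 3 (24.6 to 42.5) overlapped that of native set 2 (31.4 to 44.2).

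The other genes followed the sets in part. SELP was highest in sets 3 (1314 CPM, 1260 to 1370) and 5 (1297 CPM, 1232 to 1365), which did not differ beyond counting error, at 478 CPM in set 2 and at 317 CPM in set 1, near the 208 to 437 CPM of the native sets. SELE was concentrated in set 3, with 155 of its 193 UMIs in 19 of 23 barcodes (92.0 CPM), against 8.05 CPM in set 2, 1 UMI in set 5 and 0 in sets 1 and 4. ICAM1 was at 562 CPM in set 5, 475 in set 3, 395 in set 2 and 282 in set 1, against 188 to 247 CPM in the native sets. PLVAP was at 413 CPM in set 3 and at 66.4 CPM in set 2, a spread that the library sum of 161 CPM does not show. PECAM1 and CDH5 were highest in set 1, at 4056 CPM (3972 to 4141) and 341 CPM (317 to 366), 1.65-fold and 2.12-fold above the native level, while PECAM1 in sets 2, 3, 4 and 5 was at 0.94, 0.84, 0.53 and 0.98 times that level. Set 4 was lowest of the graft sets in both, at 1303 and 32.8 CPM, and its 6 CDH5 UMIs give little precision.

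Which sets enter the sum therefore fixed several of the ratios. Without sets 2, 3 and 5, chosen after their values were seen, the log2 ratio of OLR1 was 0.66 instead of 4.45, that of SELP 0.17 instead of 1.28, and that of CLDN5 changed sign to 0.43; SELE then had 0 UMIs in both libraries. Without set 3 alone the log2 ratios of SELP and SELE were 0.97 and 0.95, and that of CLDN5 was -0.56 without set 2 and -3.66 without set 1. PLVAP had a log2 ratio of 0.07 without set 3 and 1.21 without set 2, against 0.62 with all. CDH5 had log2 ratios of 0.50 to 0.96 over the 18 alternatives tried.

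Native sets differed less. Set 1 (797 barcodes) was led by the interferon-inducible genes CXCL10 and IDO1, set 2 (680) by EFNA5, HMCN2 and PLXNA4, set 3 (594, median 2965 UMIs) by DCN, PTGDS and COL1A1, which are fibroblast transcripts, and set 4 (229) by CCN2, HSPA6 and TGFB2. Set 2 was lowest in 7 genes, PECAM1 (1941 CPM), CDH5 (103), CLDN5 (260.4), ESAM (37.9), SELP (208), ICAM1 (188) and PLVAP (39.3), and had 6.47% mitochondrial UMIs, beside 2.05 to 3.30% in the others. SELP was highest in set 4, at 437 CPM (406 to 469.7). OLR1 was lowest in set 3, at 45.6 CPM. SELE was at 0 in all 4.

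**Figure D5:**
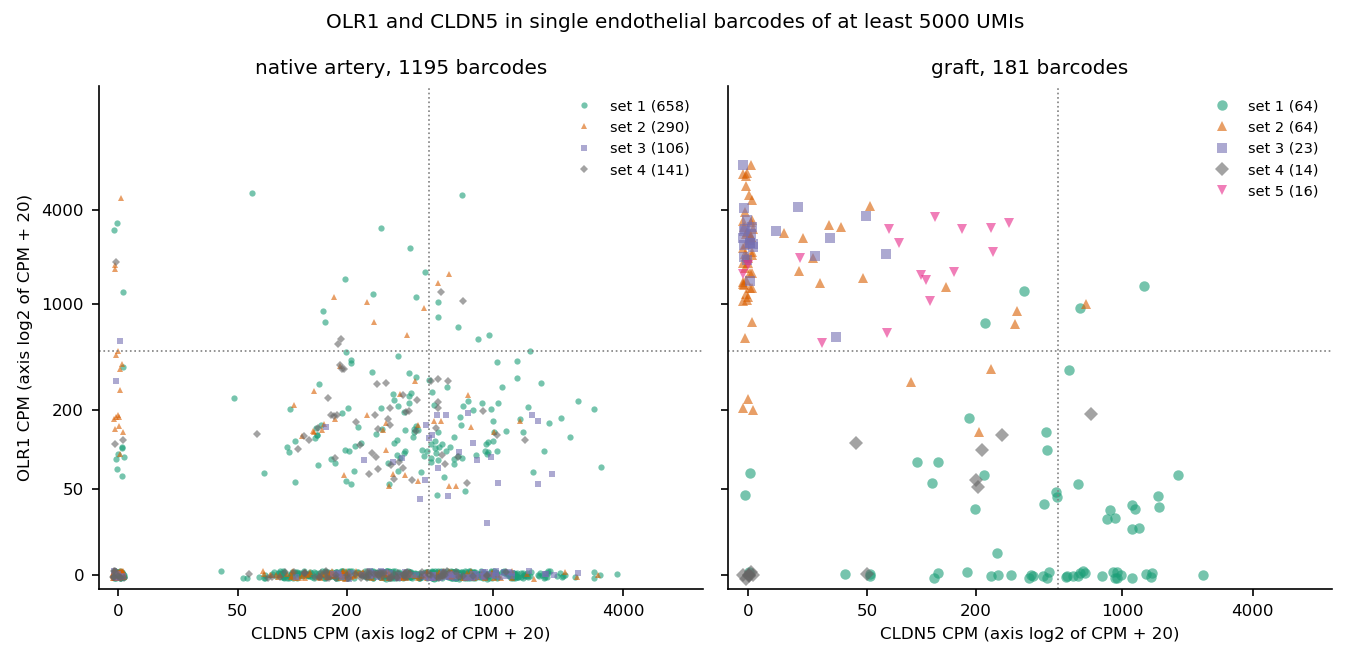
OLR1 (y axis) against CLDN5 (x axis) in single endothelial barcodes of at least 5000 UMIs of the artery (left, 1195) and the graft (right, 181), in CPM on axes of log2 of CPM + 20. Colours and shapes mark the sets, points are shifted by a small random amount to part overlapping ones, and dotted lines stand at 500 CPM; 98 graft barcodes lie upper left, 32 lower right and 3 upper right.

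The same division held within single barcodes. With a limit of 500 CPM, set after the values were seen, 98 of 181 graft barcodes of at least 5000 UMIs were over it for OLR1 alone, 32 for CLDN5 alone, 3 for both and 48 for neither. In the artery 26 of 1195 were over it for OLR1 alone, 417 for CLDN5 alone and 11 for both. OLR1 thus reached 500 CPM in 101 of 181 graft and 37 of 1195 native barcodes. With each barcode thinned to 5000 UMIs, CLDN5 was detected in 24.8% of the graft barcodes with OLR1 and in 64.1% of those without it; in the artery these were 76.6% and 74.3%. Spearman's rho across graft barcodes was -0.49 for this pair, and 0.05 in the artery. Other graft pairs were CLDN5 with PECAM1 (0.50), SELP with PLVAP (0.36), SELP with OLR1 (0.33), ICAM1 with OLR1 (0.33), SELP with ICAM1 (0.31) and PECAM1 with OLR1 (-0.36). The barcodes share a library and the sets above, so these describe that library alone.

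The partners of these proteins were read from lists of named genes. The counts of all lists below stand beside 7.65% at least 2-fold higher and 6.39% lower over the 14750 genes tested in endothelial barcodes. Counts from lists this short are not read as results about a list. Some genes counted had few UMIs in 1 library, such as JAM3 (163 native, 6 graft), CDH2 (3 and 172) and F3 (110 and 7). Of 22 measured adherens and tight junction partners, 4 stood above 2-fold in graft endothelial barcodes and 4 below it, and the median log2 ratio was 0.14. JUP, the plakoglobin that links VE-cadherin to the cytoskeleton, was 2.66-fold higher (25.2 to 67.1 CPM), and VCL, the vinculin of junctions under tension, 2.70-fold higher (107 to 290.4 CPM). JAM2, a junctional adhesion molecule, was 4.56-fold lower (373 to 81.7 CPM), with 122, 65.0, 92.6, 285 and 23.4 CPM in graft sets 1 to 5. The catenins CTNNB1 (377 and 422 CPM), CTNNA1 (330.1 and 375) and CTNND1 (143 and 110.1) and the scaffold TJP1 (117 and 105) stayed within 2-fold. Of 18 measured genes that stabilise or loosen junctions, 2 passed 2-fold upward and 0 downward (median -0.12). They were ROBO4, a stabilising receptor (4.50-fold, 28.8 to 129 CPM), and KDR, the main VEGF receptor (4.08-fold, 18.8 to 76.9 CPM).

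Of 9 measured other adhesion molecules, 3 passed 2-fold upward and 2 downward (median 0.39), while VCAM1, ICAM2 and SELPLG were not analysed here. CD44, a hyaluronan receptor that also serves as a selectin ligand, was 34.7-fold higher (5.84 to 203 CPM) and ITGAV, a vitronectin receptor chain, 13.1-fold higher (124 to 1615 CPM). THY1 was 7.49-fold lower (176 to 23.4 CPM) and MCAM 2.42-fold lower (94.9 to 39.2 CPM). CD44 and ITGAV were higher in graft sets 2, 3 and 5 than in set 1: 342, 113 and 146 against 23.2 CPM for CD44, and 1748, 2326 and 2091 against 658 CPM for ITGAV. These are the sets with high OLR1.

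The receptors that leukocytes use for these molecules were read in the leukocyte classes. ITGB2, the shared chain of the integrins that bind ICAM1, was at 203 CPM (192 to 215) in native and 410.0 CPM (399 to 421) in graft macrophages. Its partner ITGAM was at 63.9 CPM (57.8 to 70.4) and 226 CPM (218 to 235) in the same barcodes. ITGAL, the partner used by lymphocytes, was at 221 CPM (206 to 237) in native and 245 CPM (202 to 294) in graft T or NK barcodes, with overlapping intervals. In endothelial barcodes ITGB2 was at 1.99 and 1.53 CPM. Of 9 measured genes of this list, only the laminin receptor chain ITGA6 was at least 2-fold different in endothelial barcodes (69.3 to 169 CPM, 2.44-fold higher). The list's median log2 ratio was -0.10, and it changed sign to 0.50 with barcodes thinned to 1000 UMIs and to 0.33 without graft sets 2, 3 and 5.

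SELE and ICAM1 are classical targets of NF-kappaB, so the genes of that response were listed beside them. Of 19 measured, 6 passed 2-fold upward and 1 downward (median 0.07, and -0.05 to 0.17 over the alternatives tried). Higher were NFKBIA, the inhibitor that the factor itself induces (3.32-fold, 237 to 785 CPM), NFKB1 (5.19-fold, 151 to 783 CPM), TNFAIP3, a second feedback inhibitor (3.83-fold, 37.1 to 142 CPM), and the interleukin-1 receptor IL1R1 (2.98-fold, 53.9 to 161 CPM). Genes within 2-fold included NFKB2 (graft over native 1.16), RELB (1.05), RELA (0.92), BIRC3 (0.91), SOD2 (0.85), TRAF1 (0.80) and IRF1 (0.76). The 1 lower gene was F3, 10.2-fold (7.30 to 0.713 CPM). How this list relates to the levels of SELE and ICAM1 was not tested. NFKB1 was at 498, 802, 1041, 224 and 963 CPM in graft sets 1 to 5. Of 9 measured Weibel-Palade body genes, 2 passed 2-fold upward and 0 downward (median 0.29); besides SELP it was PLAT, which encodes tissue plasminogen activator and reached 116 CPM from 0.863, 135-fold higher (78.6 to 254), with 246 CPM in set 2 and 5.47 CPM or less in the other graft sets.

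Of 10 measured scavenger and lectin-like receptors, 3 passed 2-fold upward and 1 downward (median 0.47). CLEC7A, the beta-glucan receptor dectin-1, was 33.9-fold higher (4.11 to 139 CPM) and CLEC1A 7.61-fold higher (15.1 to 115 CPM), while LRP1 was 3.85-fold lower (53.4 to 13.9 CPM). CLEC7A and CLEC1A are the next genes beyond OLR1 in the RefSeq gene order of assembly ARS-UI_Ramb_v3.0. By graft set they followed OLR1 in part: CLEC1A was at 5.92 CPM in set 1 and at 91.6, 99.8 and 457 CPM in sets 2, 3 and 5, and CLEC7A at 5.01 in set 1 and at 161, 109 and 373 CPM in those sets.

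Of 12 caveola and diaphragm genes, 4 passed 2-fold upward and 3 downward (median 0.45). The higher ones were EHD2, KDR (given above), NRP1 (4.33-fold, 54.3 to 235 CPM) and ESM1 (5.77-fold, 15.7 to 90.4 CPM). Of these only EHD2 belongs to the caveola itself. The lower ones were CAV1 (2.43-fold, 544 to 224 CPM), CAV2 (4.60-fold, 425 to 92.4 CPM) and CAVIN2 (21.9-fold, 550.01 to 25.1 CPM). The genes of the caveola coat did not move together. CAVIN1 (476 and 471 CPM) and CAVIN3 (105 and 214 CPM, log2 ratio 0.99 with 5 CPM added) did not pass 2-fold. EHD2, which stabilises the caveola neck, was 2.30-fold higher (129 to 297 CPM). CAVIN2 was at 70.6 CPM in graft set 1 and 0.594 CPM in set 3, where PLVAP was highest. Of 17 measured immediate early and dissociation genes, which respond to digestion, 1 passed 2-fold upward and 9 downward in the graft (median -1.33). FOS was 4.04-fold lower (4710 to 1166 CPM), JUN 2.94-fold, JUNB 2.77-fold and JUND 2.78-fold. The part of this response and of the cycling list in the differences of the 9 genes was not tested. With each barcode thinned to 1000 UMIs, the log2 ratios were 4.17 for OLR1, 1.34 for SELP, -0.89 for CLDN5 and 0.09 for ESAM. Thinning also gives each barcode equal weight, so these values do not show depth alone. Equal weight without thinning gave 4.12, 1.23, -0.87 and 0.53 for the same genes. The thinned ESAM value rests on few UMIs, with a mean of 0.097 per graft endothelial barcode.

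Over 10 profiles (5 classes of at least 30 barcodes in each library), the genes whose levels most resembled each of the 9 were found among 5847 genes by Pearson's r of log2 of CPM + 5; the profiles of 1 library share their free RNA. For CDH5 they were NOS3 (0.996), SOX18 (0.993) and TM4SF18 (0.989), and for CLDN5 RIMS2 (0.990), GATA2 (0.990) and KIF26A (0.988). SELP was most like SOX18 (0.970), MALL (0.970) and NOS3 (0.965), and PECAM1 like TIE1 (0.965), ITPRID2 (0.962) and HSPA4L (0.956). ESAM was most like CHMP4C (0.990), ICAM1 like WASF2 (0.983), PLVAP like HSPA4L (0.969), SELE like NPPC (0.954) and OLR1 like BLVRA (0.922), the lowest of the 9. Among these profiles SELE was above 0 only in graft endothelial barcodes (19.7 CPM) and in graft and native macrophages (2.16 and 1.09 CPM). Its r therefore rests mostly on 1 profile. NPPC resembled SELE over classes although by set they parted, with NPPC at 1834 CPM in graft set 1, where SELE was at 0, and at 2.97 CPM in set 3.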

How the data were processed

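The authors deposited 1 matrix of raw UMI counts for each library. Per the submitters' processing notes, reads were handled with bcl2fastq 2.20.0.422 and Cell Ranger 7.2.0, and Seurat 5.0.0 with R 4.3.3 is also listed. The genome build is not given in the sources used here. Barcodes with under 200 genes or over 20% mitochondrial UMIs were removed (266 native, 143 graft), as were the barcodes with the highest Scrublet scores, scored over all deposited barcodes at 0.8% per 1000 (1034 and 12), since its automatic threshold marked 0 and 3; some native barcodes failed both. Kept were 10080 and 1074 barcodes, of which the 5682 native and 216 graft ones under 2000 UMIs got no class. PECAM1 in these shallow barcodes was at 1464 and 909.95 CPM. The endothelial reference genes summed there to 1993 native and 698 graft CPM, against 3183 and 2988 in endothelial barcodes. Whether the shallow barcodes held free RNA or cells of low depth was not tested. Without the UMI minimum, endothelial barcodes numbered 3022 native and 202 graft.

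A barcode got a class when 1 marker list passed its limit (endothelial 2000, smooth muscle 3000, fibroblast 5000, macrophage 2500, T or NK 2000, B or plasma 1500 CPM) with at least 5 UMIs. The endothelial list was VWF, KDR, FLT1, TEK, TIE1, EGFL7, ERG, EMCN, ROBO4, CLEC14A, MMRN2, NOS3, PTPRB, SOX17, SOX18, SOX7, CYYR1, SHANK3, ECSCR, RAMP2 and CALCRL. CLEC3B was left out of the fibroblast score because endothelial clusters also carried it. Barcodes with several lists marked (84 native, 48 graft) were left out, and 323 native and 28 graft endothelial barcodes lay within 25% of the limit. Limits and the UMI minimum were set after the data were seen, and the 9 genes and all lists were chosen with earlier results of these data known.

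UMIs were summed per class and library and scaled to CPM. Levels carry exact Poisson, ratios exact conditional binomial and shares exact Clopper-Pearson intervals at 95%. Named list genes were at least 2-fold different with at least 50 CPM in the higher library, at most the 4 highest in mean CPM of each list. Others were named for their role, or to show values on the other side, after their values were seen. They included the catenins, TJP1, ITGB2, ITGAM, ITGAL, EMCN, NR2F2, GJA5, JAM3, CDH2, F3, NFKB2, RELB, RELA, BIRC3, SOD2, TRAF1, IRF1, CAVIN1 and CAVIN3. NRP1 and ESM1 were also named in this way. Endothelial barcodes were clustered per library with scanpy 1.11.5 (2000 variable genes without the 9, 30 components, 15 neighbours, Leiden resolution 0.5). The ratio calculation was tested on simulated data. No test between tissues was made.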

Additional observations from a re-analysis of the deposited data

How the results depend on the processing

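No paired analysis was possible because each tissue has 1 library. Endothelial barcodes numbered 1195 to 3022 native and 88 to 212 graft over the settings. Of the 9 genes, 3 were at least 2-fold higher and 1 lower; the lower count was 0 with each barcode thinned to 1000 UMIs, with equal weight for each barcode and without graft set 2. The higher count was 1 without graft set 3, and both counts were 0 without graft sets 2, 3 and 5. Without graft set 2, PLVAP also passed 2-fold upward, with a log2 ratio of 1.21. PECAM1 changed sign to -0.13 without graft set 1. The omission of sets 2, 3 and 5 also reversed the CLDN5 log2 ratio to 0.43 and left 15 listed genes higher instead of 25. Genes with a higher equal-depth share and intervals apart numbered 4, against 7 without thinning and 2 when at least 2 UMIs were required. Over 10 other settings of class assignment, filters, thinning, weighting, scaling and added CPM, log2 ratios ranged from 4.12 to 4.52 for OLR1, 1.23 to 1.34 for SELP, -1.42 to -0.87 for CLDN5, 0.55 to 0.74 for CDH5, 0.09 to 0.59 for ESAM and 0.76 to 0.87 for ICAM1. Omissions of sets and of the UMI minimum were chosen after seeing the data. Scaling by the median ratio moved all genes by 0.037 on the log2 scale. Graft values rest on 195 barcodes, and native SELE on a count of 0.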
